A study of Mus musculus with 24 samples.

Results

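The genes described here encode lysosomal enzymes, lysosomal membrane proteins and regulators of the lysosome, and were taken from a fixed list of 37 symbols. Each was read from the probe set with the highest mean over the arrays among those whose annotation names that gene alone, with the MA design preferred. A probe set was found for 36 of the 37 genes, 35 on MA and 1 (Tfe3) on MB, and no probe set of 1 gene named Cd63. After a filter on dim probe sets 34 genes were tested, of 12134 genes tested in the whole series. Ctsk and Gla fell below the filter. The measured values chose no member, but the list was drawn up with earlier results of these data known.

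RNA came from C2C12 cells, an established mouse line of myoblasts that can fuse into myotubes. The 12 cultures formed 4 groups of 3: DM at 5 mM glucose, GM at 5 mM glucose, DM at 25 mM glucose and GM at 25 mM glucose. The labels give only the letters GM and DM, which in this line commonly stand for growth and differentiation medium, and give no genotype, other agent, culture time or time of exposure to glucose. RNA of each culture was measured on MA and on MB, and the series states an interest in calorie restriction and the differentiation of muscle precursors.

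Lysosomes break down proteins, glycans and lipids with acid hydrolases. Most soluble hydrolases are tagged with mannose 6-phosphate in the Golgi and carried by sorting receptors, while a proton pump, the V-ATPase, acidifies the lumen and heavily glycosylated proteins such as LAMP1 and LAMP2 line the membrane. TFEB and TFE3 are transcription factors that, in mammalian cells, bind E-box-like motifs near the start of many lysosomal genes. In skeletal muscle, loss of single lysosomal enzymes or membrane proteins, such as acid alpha-glucosidase or LAMP2, causes storage myopathies.

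The medium labels were borne out by muscle genes. Myog, a transcription factor of muscle differentiation, averaged 6250 in DM and 20.6 in GM at 5 mM, and 6129 in DM and 14.8 in GM at 25 mM. Ckm and Acta1 were likewise higher in DM, and Mki67 and Ccnd1, which mark dividing cells, were lower. The control for 18S ribosomal RNA was low (23.0 to 48.1 on MA) in 4 cultures and high (279 to 1267) in the other 8, a division that the labels do not explain. Among the high cultures it read 279 to 501 in DM and 629 to 1267 in GM, a difference that this division does not take up. The part of that difference in the changes with medium was not tested. The low cultures were the second DM culture at 5 mM, the first and the second GM culture at 5 mM and the third DM culture at 25 mM, and none was a GM culture at 25 mM. A fit to the high cultures alone thus kept only the third GM culture at 5 mM. With the groups kept in the model, 9 of the 34 members (26.5%) differed between low and high cultures, 7 lower and 2 higher in the low ones, against 16.8% of all genes. Laptm4a was lower by a log2 change of -0.57 and Lamp1 by -0.51 in the low cultures, and Lgmn was higher by 0.79. The highest MA intensity was 6719 to 9752 in the low cultures and 17234 to 22957 in the others. The log2 ratio of the 3′ to the 5′ control of Actb, a sign of RNA quality, was 0.099 to 0.37 in DM and -0.051 to 0.38 in GM at 5 mM, and 0.12 to 0.18 in DM and 0.34 to 0.55 in GM at 25 mM. It thus separated DM from GM at 25 mM, and its part in the changes with medium was not tested. In bulk RNA, fewer cells of a type and less RNA per cell cannot be told apart, and since the arrays had been scaled to a common mean, a change is relative to the other RNAs. The labels do not say whether replicates were separate cultures or passages, so a p-value here reflects no more than the spread among these samples, which may be technical.

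Lysosomal genes that changed with the medium were mostly lower in DM. At 5 mM glucose 11 of the 34 members fell and 2 rose, and at 25 mM glucose 12 fell and 0 rose. Progranulin (Grn), the cholesterol carrier Npc2, the protective protein Ctsa, the mannosidase Man2b1 and the transcription factor Tfe3 fell by the most or with the smallest p, while the membrane proteins Lamp1, Lamp2, Scarb2 and Mcoln1 did not pass the test at either glucose level. A gene was called at an adjusted p under 0.05, from limma with Benjamini-Hochberg adjustment over all probe sets of a design, and changes are differences in log2 of intensity plus 20.

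Against the background, the members called lower at 5 mM were 32.4% of those tested, where 14.1% of all genes tested were called lower. Called higher were 5.88% of the members and 9.90% of all genes, so that 38.2% of the members and 24.0% of all genes were called in either direction. At 25 mM the share called lower was 35.3% for members and 16.6% for all genes, and the share called higher was 0 for members and 12.6% for all genes. The share called in either direction at 25 mM, 35.3%, was near the 29.2% of all genes. The median log2 change of the members was -0.10 at 5 mM and -0.26 at 25 mM, against medians of -0.04 and -0.11 over all genes. At 25 mM the split of calls depended on scaling: median centring, which moved the median change of all MA probe sets from -0.11 to 0.09, gave 3 members higher and 9 lower, and quantile normalization gave 1 higher and 11 lower.

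Of the 34 members, 9 fell at both glucose levels, which is 26.5%, against 10.3% of all genes. These were Grn, Npc2, Ctsa, Man2b1, Tfe3, Gusb, Gm2a, Ppt1 and Psap. No member rose at one glucose level and fell at the other by these calls, and 18 (52.9%) were called at neither, against 65.1% of all genes.

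**Figure D1:**
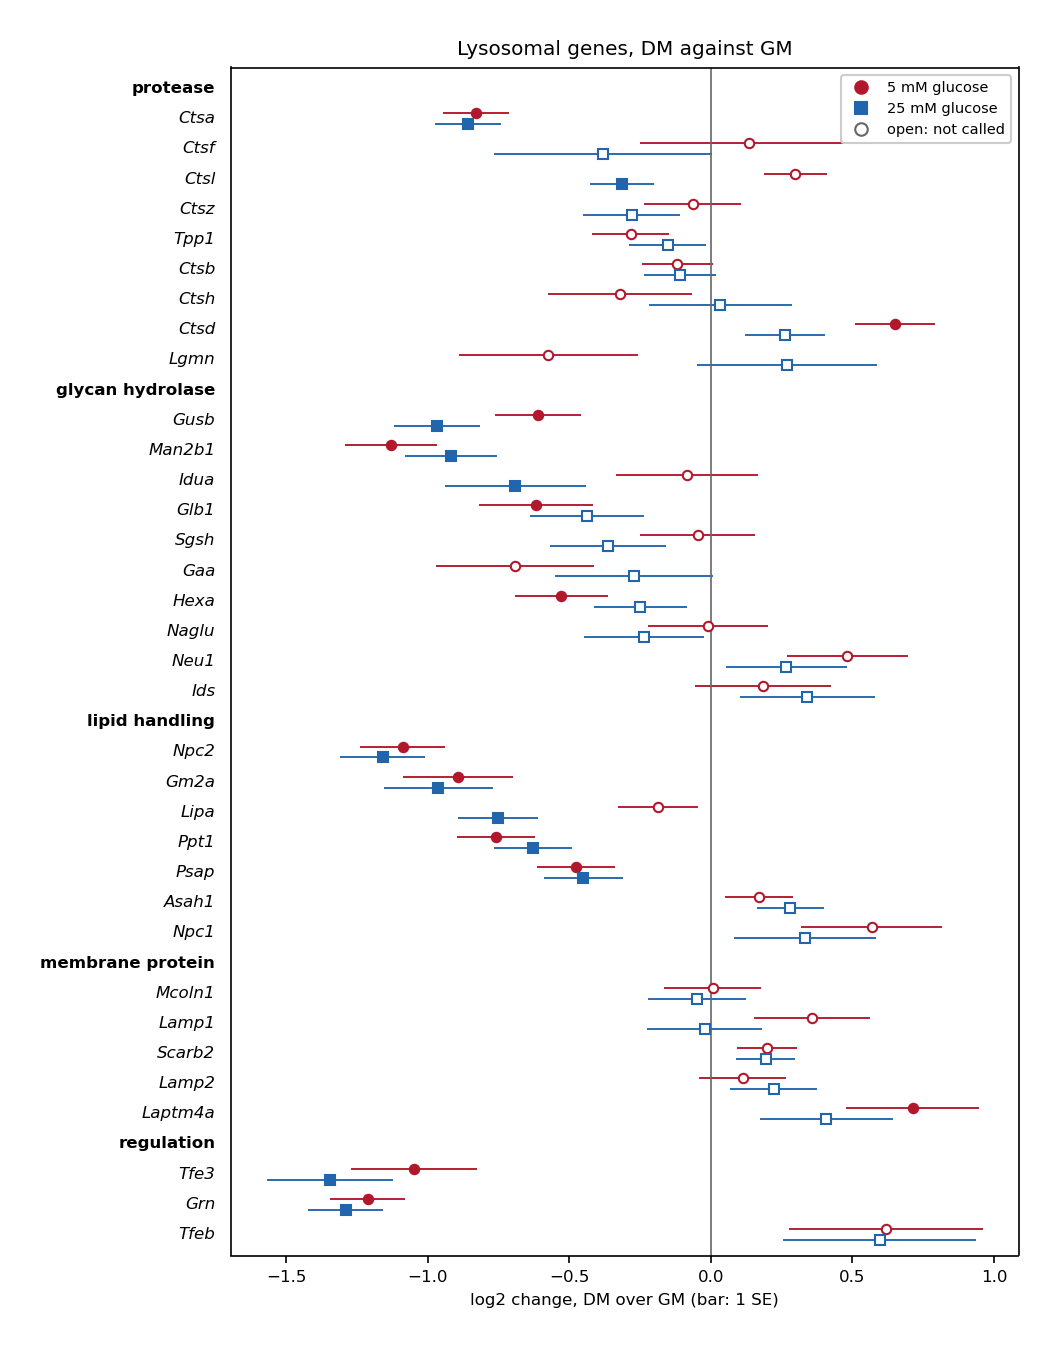
Log2 change of DM over GM for the 34 tested members, grouped by role, at 5 mM (circles) and 25 mM glucose (squares), with bars of 1 SE and open symbols where the test was not passed. Filled symbols lie left of 0 for 11 members at 5 mM and 12 at 25 mM, and right of 0 only for Ctsd and Laptm4a at 5 mM.

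Among proteins that carry or cleave lipids and their cofactors, 4 of 7 fell at 5 mM and 5 of 7 at 25 mM. These 57.1% and 71.4% stand beside the 14.1% and 16.6% of all genes called lower. The shares by role depend on how the genes were sorted. Each gene was given 1 role, and Npc1 was counted here and not among the membrane proteins. Npc2 encodes the soluble protein that hands cholesterol from the lysosomal lumen to NPC1 in the membrane. Its intensity was 1389, 1809 and 1431 in DM and 3438, 3164 and 3245 in GM at 5 mM. At 25 mM it was 1113, 1311 and 1506 in DM and 3088, 2774 and 2933 in GM. Every DM culture lay below every GM culture at both glucose levels, and Npc2 fell by 1.09 (SE 0.15, limma adjusted p = 6.14e-05) at 5 mM and by 1.16 (SE 0.15, adjusted p = 3.01e-05) at 25 mM on the log2 scale. The GM2 activator Gm2a, a cofactor that presents gangliosides to hexosaminidase, averaged 104 ± 20.5 in DM and 210 ± 45.3 in GM at 5 mM (SD, n = 3 each), with a log2 change of -0.89. Gm2a averaged 119 ± 25.8 in DM and 248 ± 28.3 in GM at 25 mM, a log2 change of -0.96. The palmitoyl-protein thioesterase Ppt1 averaged 165 ± 25.8 in DM and 291 ± 15.1 in GM at 5 mM, and 177 ± 6.46 in DM and 286 ± 33.2 in GM at 25 mM, and it fell by 0.76 and by 0.63. The same direction held for prosaposin (Psap), the precursor of the saposin cofactors, with 1577 ± 144 in DM and 2204 ± 202 in GM at 5 mM and 1678 ± 217 in DM and 2286 ± 10.6 in GM at 25 mM. Psap fell by 0.48 at 5 mM and by 0.45 at 25 mM. Its call was lost at 5 mM without the second DM or the third GM culture of that level, and at 25 mM without the third DM, the second GM or the third GM culture of that level, with changes from -0.54 to -0.40 and from -0.52 to -0.34 as single cultures were left out. The acid ceramidase Asah1 and the cholesterol transporter Npc1 were not called at either level. Their log2 changes were 0.17 and 0.57 at 5 mM and 0.28 and 0.33 at 25 mM. Npc1 was dim, at a mean of 44.6 beside the filter's floor of 33.2 on MA.

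Among enzymes that cleave glycans, 4 of 10 tested fell at 5 mM and 3 of 10 at 25 mM, and none rose. These 40% and 30% stand beside 14.1% and 16.6% of all genes called lower, and 24.0% and 29.2% called in either direction. The lysosomal alpha-mannosidase Man2b1 averaged 168 ± 6.41 in DM and 393 ± 48.4 in GM at 5 mM, and 188 ± 28.9 in DM and 377 ± 80.3 in GM at 25 mM (SD, n = 3 each). Its DM and GM cultures did not overlap, and it fell by 1.13 (SE 0.16, limma adjusted p = 9.64e-05) at 5 mM and by 0.92 (SE 0.16, adjusted p = 0.000527) at 25 mM. The beta-glucuronidase Gusb averaged 123 ± 16.0 in DM and 199 ± 34.9 in GM at 5 mM, and 101 ± 10.7 in DM and 217 ± 6.73 in GM at 25 mM, and it fell by 0.61 and by 0.97. Hexa, the alpha subunit of hexosaminidase, and the beta-galactosidase Glb1 fell at 5 mM, by 0.53 and 0.62, and the iduronidase Idua fell at 25 mM by 0.69. Each of these 3 calls was lost when certain single cultures were left out. With the 18S division as a block the calls of Hexa and Glb1 held and that of Idua was lost. The first and the second GM culture at 5 mM were low-18S ones, as was the second DM culture. Hexa was higher in low-18S cultures by 0.35 with the groups in the model. Hexa averaged 454 ± 85.7 in DM and 657 ± 55.0 in GM at 5 mM, and lost its call without the third DM, the first GM or the second GM culture of that level (changes of -0.64 to -0.38). Glb1 averaged 112 ± 39.2 in DM and 177 ± 20.9 in GM at 5 mM, and lost it without the first DM, the first GM or the second GM culture of that level (-0.81 to -0.37). Idua averaged 66.2 ± 11.9 in DM and 119 ± 19.9 in GM at 25 mM, and lost its call without any one of the 3 DM cultures, the first or the third GM culture of that level, or the first or the second GM culture at 5 mM (-0.81 to -0.58). The interaction, which tests whether the change with medium differs between glucose levels, was not called for any of these 3. The acid alpha-glucosidase Gaa, which degrades glycogen, had log2 changes of -0.69 at 5 mM and -0.27 at 25 mM that did not pass the test, and Naglu, Sgsh, Neu1 and Ids, which act on heparan sulfate or sialic acids, were not called either, with changes between -0.36 and 0.48. The chosen probe set of Ids was dim, at a mean of 43.5. The alpha-galactosidase Gla was below the filter, at means of 31.8 ± 9.10 in DM and 36.6 ± 5.45 in GM at 5 mM. At 25 mM its means were 20.7 ± 5.85 in DM and 33.3 ± 13.8 in GM.

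Of 9 proteases tested, 1 rose and 1 fell at 5 mM and 2 fell at 25 mM. The share called was 22.2% at each level, beside 24.0% and 29.2% of all genes. Ctsa, a serine carboxypeptidase that also protects beta-galactosidase and neuraminidase, read 265, 253 and 304 in DM and 469, 495 and 542 in GM at 5 mM. At 25 mM it read 238, 266 and 227 in DM and 439, 455 and 479 in GM. The groups did not overlap, and Ctsa fell by 0.83 (SE 0.12, limma adjusted p = 7.6e-05) at 5 mM and by 0.86 (SE 0.12, adjusted p = 4.91e-05) at 25 mM. The aspartic protease Ctsd, a main protease of the lumen, went the other way, with 1705, 1372 and 1614 in DM and 929, 931 and 1103 in GM at 5 mM, and its values were looked up after the call was seen. It was higher in every DM culture at 5 mM, with a log2 change of 0.65 (SE 0.14, limma adjusted p = 0.00281), and the call held in all 25 alternative settings (0.56 to 0.76). Ctsd was lower by 0.26 in low-18S cultures, which include the first and the second GM culture at 5 mM, with the groups in the model. Its interaction was 0.39, and 0.22 with the 18S division as a block, not called in either. At 25 mM Ctsd read 1531, 1289 and 1164 in DM and 997, 1090 and 1213 in GM, which overlapped, with a log2 change of 0.26 (limma adjusted p = 0.167). With the 18S division as a block the change at 25 mM was 0.35 and was called (adjusted p = 0.00876). It was also 0.35 when the 4 low-18S cultures were left out (adjusted p = 0.0396).

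The cysteine protease Ctsl is described with glucose below, since it differed between the glucose levels in DM. Ctsk, the collagen-degrading cysteine protease known from osteoclasts, was dim throughout. It read 28.1, 16.8 and 5.35 in DM and 30.0, 23.2 and 31.4 in GM at 5 mM, and 31.0, 6.64 and 2.63 in DM and 22.9, 27.2 and 32.4 in GM at 25 mM, and was not tested. The cathepsins Ctsb, Ctsf, Ctsh and Ctsz, the asparaginyl endopeptidase Lgmn and the tripeptidyl peptidase Tpp1 were not called in either comparison, with log2 changes between -0.57 (Lgmn at 5 mM) and 0.27 (Lgmn at 25 mM). Ctsf and Ctsh were dim, at means of 55.7 and 48.9. Ctsb, a cysteine protease, averaged 1634 ± 132 in DM and 1775 ± 149 in GM at 5 mM. At 25 mM it averaged 1549 ± 117 in DM and 1670 ± 83.6 in GM.

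Of 5 membrane proteins tested, 1 rose at 5 mM, which is 20% beside the 24.0% of all genes called in either direction, and none was called at 25 mM. The median log2 change of the 5 was 0.20 at 5 mM and 0.19 at 25 mM. Laptm4a, a membrane protein of lysosomes and late endosomes, read 5560, 3527 and 6310 in DM and 2871, 2704 and 3596 in GM at 5 mM, with values looked up after the call was seen. The low-18S DM culture, at 3527, lay below the high-18S GM culture, at 3596, and the log2 change was 0.71 (SE 0.23, limma adjusted p = 0.0338). At 25 mM Laptm4a read 5425, 4940 and 3407 in DM and 3376, 3155 and 3656 in GM, and the lowest DM value was again that of the low-18S culture. The change of 0.41 at 25 mM was not called (adjusted p = 0.194). At 5 mM the call was lost without the first DM, the third DM, the first GM or the second GM culture of that level, with changes of 0.54 to 0.96 over all cultures left out in turn. With the 18S division as a block the change was 0.52 at 5 mM and 0.60 at 25 mM and was called at both (limma adjusted p = 0.000702 and 0.000193), and within the 8 high-18S cultures it was 0.72 and 0.61, also called at both (adjusted p = 0.00328 and 0.000713).

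LAMP1 and LAMP2 are among the most abundant glycoproteins of the lysosomal membrane. Lamp1 read 3381, 2399 and 3985 in DM and 2231, 2269 and 3016 in GM at 5 mM, and 2889, 2826 and 2028 in DM and 2700, 2441 and 2632 in GM at 25 mM. Its groups overlapped at both levels, with log2 changes of 0.36 (SE 0.20, limma adjusted p = 0.223) and -0.02 (SE 0.20, adjusted p = 0.944). At 5 mM Lamp1 was called higher with array weights (0.54, limma adjusted p = 0.00871) and without the second DM culture, which is a low-18S one (0.56, adjusted p = 0.0415). Lamp2 read 1129, 1232 and 858 in DM and 917, 1032 and 996 in GM at 5 mM, and 850, 889 and 1103 in DM and 920, 751 and 753 in GM at 25 mM. These groups overlapped too, with log2 changes of 0.11 (limma adjusted p = 0.648) and 0.22 (adjusted p = 0.278). By their chosen probe sets, the enzyme receptor Scarb2, which carries glucocerebrosidase, and the calcium channel Mcoln1 had log2 changes between -0.05 and 0.20. Their other probe sets are described below. Scarb2 averaged 764 ± 32.3 in DM and 663 ± 25.1 in GM at 5 mM, and 712 ± 51.3 in DM and 619 ± 28.1 in GM at 25 mM.

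Of the 3 regulators, Grn and Tfe3 fell at both glucose levels and Tfeb was not called. The share called lower, 66.7% at each level, rests on 3 genes, beside 14.1% and 16.6% of all genes. Grn encodes progranulin, a secreted and lysosomal glycoprotein that is cut into granulins. It read 1111, 1050 and 952 in DM and 2586, 2343 and 2356 in GM at 5 mM. At 25 mM it read 991, 1079 and 807 in DM and 2357, 2243 and 2483 in GM. Every DM value was below every GM value, and Grn was 2.32-fold lower at 5 mM (log2 change -1.21, SE 0.13, limma adjusted p = 7.21e-06) and 2.45-fold lower at 25 mM (log2 change -1.29, SE 0.13, adjusted p = 3.45e-06).

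Tfe3 was measured on MB, so its levels are on another scale than those of the other members. It read 1078, 668 and 882 in DM and 1945, 1509 and 1988 in GM at 5 mM, and 798, 1138 and 600 in DM and 2326, 1868 and 2158 in GM at 25 mM. All DM cultures lay below all GM cultures, with log2 changes of -1.05 (SE 0.22, limma adjusted p = 0.00585) at 5 mM and -1.35 (SE 0.22, adjusted p = 0.000528) at 25 mM. Within the 8 high-18S cultures, which keep only the third GM culture at 5 mM, the change at 5 mM was -1.01 and the call was lost. In limma, eBayes without a trend also ended the call at 5 mM (adjusted p = 0.0793). Tfeb was dim, with 85.6, 89.1 and 62.2 in DM and 67.7, 46.1 and 25.1 in GM at 5 mM, and 90.7, 78.0 and 108 in DM and 65.3, 99.1 and 19.5 in GM at 25 mM. Its groups overlapped at both levels, and its log2 changes of 0.62 and 0.60 did not pass the test (SE 0.34 each, limma adjusted p = 0.207 and 0.193).

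**Figure D2:**
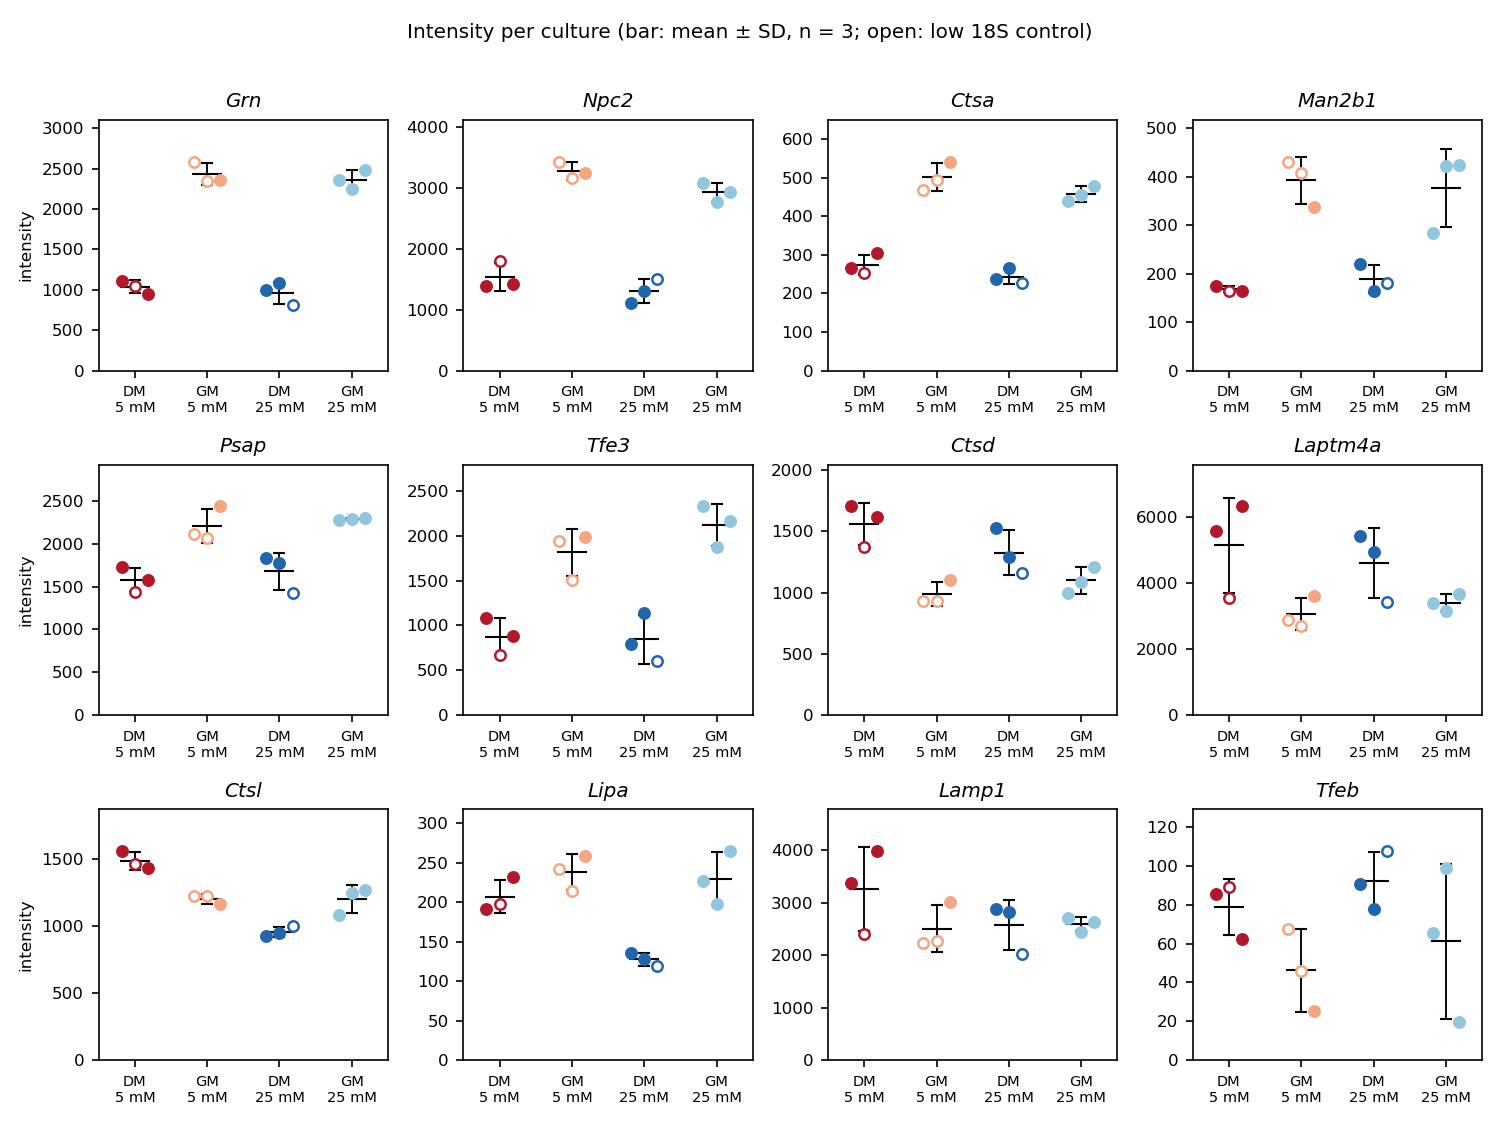
Intensity of 12 members in each culture, with DM left of GM at 5 mM and then at 25 mM glucose; bars are mean ± SD of 3 cultures, open circles are the 4 low-18S cultures, and each panel has its own axis from 0. The DM points of Grn, Npc2, Ctsa, Man2b1, Psap and Tfe3 lie below all GM points at both glucose levels, and Ctsl is highest in DM at 5 mM and lowest in DM at 25 mM.

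Further probe sets of the same genes were compared, since 20 members had more than 1 tested probe set. For 7 members called at 5 mM, 13 other probe sets were tested, of which 10 had the same sign and 6 were called with it. For 9 members called at 25 mM, 16 others were tested, of which 14 had the same sign and 5 were called with it. All 3 probe sets of Grn were called lower at both levels, with log2 changes of -0.90 to -1.37 at 5 mM and -0.88 to -1.48 at 25 mM. Probe sets disagreed for Ctsa, whose MB probe set changed by 0.04 at 5 mM and -0.33 at 25 mM. Ppt1 had a second MA probe set with changes of -0.92 at 5 mM, called, and -0.46 at 25 mM, not called. The MB probe sets of Ppt1 changed by 0.52 and 0.05 at 5 mM and by 0.07 and -0.51 at 25 mM, none called. For Gm2a the other MA probe set changed by -0.57 and -0.48 and the MB one by -0.20 and 0.06, none called. The MB probe set of Mcoln1 read 43.7, 35.9 and 104 in DM and 112, 134 and 182 in GM at 25 mM. Every DM value there was below every GM value, while the chosen MA probe set overlapped. At 5 mM this MB probe set read 94.0, 76.4 and 186 in DM and 170, 147 and 153 in GM, which overlapped. Probe sets also disagreed for Ids, whose MB probe set, at a mean of 1387 on the MB scale, was far brighter than the chosen one. It had a log2 change of -1.03 at 5 mM that was not called (limma adjusted p = 0.0774). For Ctsz, Ctsb and Scarb2 another MA probe set was called at 25 mM (-0.52, -0.57 and 0.52). The chosen one of each was not called, but changed in the same direction.

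**Figure D3:**
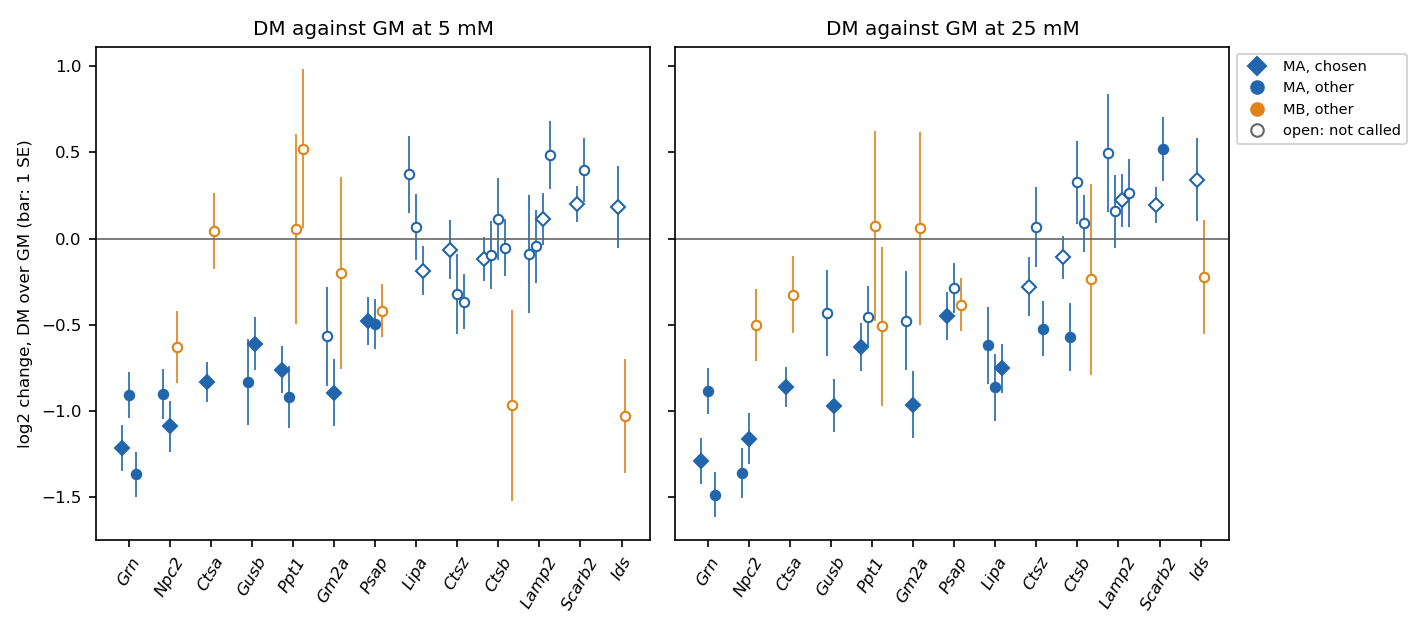
Log2 change of DM over GM with bars of 1 SE for each tested probe set of 13 members that have several, at 5 mM (left) and 25 mM glucose (right); diamonds are the chosen probe sets, circles the others, blue MA and orange MB, and open symbols are not called. The 3 probe sets of Grn lie between -1.48 and -0.88, while those of Ctsb and Ids lie on both sides of 0 at 25 mM.

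Promoter sequences of 4 members are shown, Ctsd and Ctsa because a promoter of each holds the E-box-like letters and the genes were called in opposite directions, and Grn and Npc2 because they had the smallest p. RefSeq promoters of GRCm38.p6, from 250 bases before to 50 after a start, were found for 33 of the 37 members, and not for Ctsb, Asah1, Ctsh and Npc1. A gene with several promoters was counted if any of them held the letters. The letters CACGTG, which read the same on both strands, were in a promoter of 12 of the 33 members (36.4%) and of 8.09% of 27025 genes. TCACGTG, on either strand, which holds those 6 letters, was in 10 of the 33 (30.3%) and in 4.29% of all genes. Of the 9 members that fell at both glucose levels, 1 (Ctsa) held TCACGTG, as did 1 of the 2 members that rose (Ctsd) and 6 of the 14 members with a promoter that were tested and called in neither comparison. A match is a description of these letters and no site of binding, and no match says only that the letters are not in this window. In the sequences below, written 5′ to 3′ along the gene, capitals mark CACGTG with a flanking T before it or A after it.
Ctsd, chr7:142387778-142388077, minus strand: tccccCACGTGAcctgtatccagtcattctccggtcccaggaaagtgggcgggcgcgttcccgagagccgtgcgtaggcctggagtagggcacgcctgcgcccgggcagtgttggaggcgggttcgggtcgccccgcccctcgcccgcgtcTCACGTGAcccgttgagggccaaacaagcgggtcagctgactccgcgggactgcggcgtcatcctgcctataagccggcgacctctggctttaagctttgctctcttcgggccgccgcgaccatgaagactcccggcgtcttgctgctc
Ctsa, chr2:164833523-164833822, plus strand: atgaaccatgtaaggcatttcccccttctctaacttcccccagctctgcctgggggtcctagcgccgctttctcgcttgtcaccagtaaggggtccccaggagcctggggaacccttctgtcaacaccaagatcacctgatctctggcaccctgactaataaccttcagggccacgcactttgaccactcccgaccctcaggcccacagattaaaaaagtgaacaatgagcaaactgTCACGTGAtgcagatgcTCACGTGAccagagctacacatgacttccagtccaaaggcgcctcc
Grn, chr11:102430257-102430556, plus strand: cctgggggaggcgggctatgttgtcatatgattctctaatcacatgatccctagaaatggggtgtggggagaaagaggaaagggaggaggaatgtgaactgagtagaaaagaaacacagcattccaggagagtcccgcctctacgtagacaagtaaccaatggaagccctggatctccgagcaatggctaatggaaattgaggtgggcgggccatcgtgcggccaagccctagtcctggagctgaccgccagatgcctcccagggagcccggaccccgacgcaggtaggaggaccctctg
Npc2, chr12:84773063-84773362, minus strand: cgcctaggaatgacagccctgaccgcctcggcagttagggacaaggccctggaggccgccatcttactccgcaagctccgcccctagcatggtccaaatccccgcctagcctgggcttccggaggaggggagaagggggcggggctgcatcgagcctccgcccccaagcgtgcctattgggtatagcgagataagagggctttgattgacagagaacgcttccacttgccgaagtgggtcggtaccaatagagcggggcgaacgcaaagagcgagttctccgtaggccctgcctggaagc
The promoter of Ctsd, which rose at 5 mM, held the motif at 245 and 99 bases before the start, and the Ctsa promoter shown, of a gene that fell, held it at 13 bases before and 4 bases after its own start. RefSeq lists 2 promoters for Ctsa, and the other one, at the upstream start of the gene, holds no CACGTG. Those of Grn and Npc2 held none.

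Few members were called between the glucose levels. In DM, 2 of 34 members (5.88%) rose at 5 mM against 25 mM and 0 fell, where 0.462% of all genes tested were called higher and 0.948% lower, together 1.41%. They were the cysteine protease Ctsl and the acid lipase Lipa, which releases cholesterol and fatty acids from cholesteryl esters and triglycerides. In GM no member was called by limma, against 0.00824% of all genes, and 4 of the 34 (11.8%) had an unadjusted p under 0.05, near the 9.56% of all genes. Cell state genes differed between the DM groups as well. Mki67 averaged 138 at 5 mM against 278 at 25 mM and Ccnd1 256 against 116, both called. Of 6 myotube genes, looked up after the calls were seen, none was called. Ckm (2370 against 3657), Tnnt1 (1986 against 3633), Myh3 (3125 against 4497) and Acta1 (8278 against 10352) averaged lower at 5 mM. Mymk (3984 against 4153) and Myog (6250 against 6129) hardly differed. The part of these genes' differences in the changes of Ctsl and Lipa was not tested.

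Ctsl read 1557, 1462 and 1430 in DM at 5 mM, against 927, 945 and 999 in DM at 25 mM. The groups were far apart, with a log2 change of 0.62 (SE 0.11, limma adjusted p = 0.00892), and the change was 0.66 when the 4 low-18S cultures were left out (adjusted p = 0.0228). In GM, Ctsl read 1223, 1222 and 1160 at 5 mM and 1077, 1246 and 1266 at 25 mM, which overlapped, with a change of 0.01 (SE 0.11, adjusted p = 0.977). The DM cultures thus lay above all GM cultures at 5 mM and below all GM cultures at 25 mM, with DM over GM changes of 0.30 (limma adjusted p = 0.0606) and -0.31 (adjusted p = 0.0423). The change at 5 mM was called in 5 of 25 alternative settings, among them the 18S block (0.31, adjusted p = 0.0119). The test of that difference, the interaction, gave 0.61 (SE 0.16) and was not called (limma adjusted p = 0.139), but it was called with the 18S division as a block (0.64, adjusted p = 0.0278) and with array weights (0.63, adjusted p = 0.0306). The call at 25 mM in DM over GM was lost in 13 of 25 alternative settings, among them without the first DM culture at 5 mM, any one of the 3 DM cultures at 25 mM, the first or the second GM culture at 5 mM, or the second or the third GM culture at 25 mM (-0.39 to -0.27). Median centring reduced it to -0.11 (adjusted p = 0.468). The rise with low glucose in DM was lost in 3 of 25, which were the fit to the cultures compared alone, without the first DM culture at 5 mM, and without the first DM culture at 25 mM.

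Lipa read 192, 198 and 231 in DM at 5 mM, against 136, 129 and 119 in DM at 25 mM. No value overlapped, and the log2 change was 0.62 (SE 0.14, limma adjusted p = 0.0398). In GM it read 242, 214 and 259 at 5 mM and 227, 198 and 265 at 25 mM, with a change of 0.05. DM over GM, Lipa fell by 0.75 at 25 mM (SE 0.14, limma adjusted p = 0.00077) and had a change of -0.19 at 5 mM that was not called (adjusted p = 0.371), and the interaction of 0.57 was not called (adjusted p = 0.286). Its other probe sets had log2 changes of 0.53 and 0.49 with glucose in DM, not called, and of -0.86 and -0.62 at 25 mM in DM over GM, both called. The rise with low glucose kept its direction in all 25 alternative settings but lost the call in 17, the range of the change being 0.50 to 0.69. Among the 17 were the high-18S cultures alone (0.60, limma adjusted p = 0.174) and leaving out any one of the 6 DM cultures, the first or the second GM culture at 5 mM, or the first GM culture at 25 mM.

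In GM the members with an unadjusted p under 0.05 were Asah1, Tpp1, Hexa and Ids, with log2 changes of 0.34, 0.36, 0.43 and 0.53. Array weights called 3 of them, Asah1, Tpp1 and Hexa. In GM the low-18S cultures made up 2 of the 3 at 5 mM and 0 of the 3 at 25 mM, and Hexa was higher in low-18S cultures by 0.35 with the groups in the model, so the 18S division was uneven in this comparison. With that division as a block the log2 values were 0.23 for Asah1, 0.20 for Tpp1, 0.20 for Hexa and 0.82 for Ids, none of them called. In DM, where each group held 1 low-18S culture, Lamp1 had a change of 0.32 that was not called (limma adjusted p = 0.692) and was called with the block (0.32, adjusted p = 0.0442). No interaction was called among the members by limma, against 0.478% of all genes, and 2 members (5.88%), Ctsl and Lipa, had an unadjusted p under 0.05, against 11.1% of all genes.

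**Figure D4:**
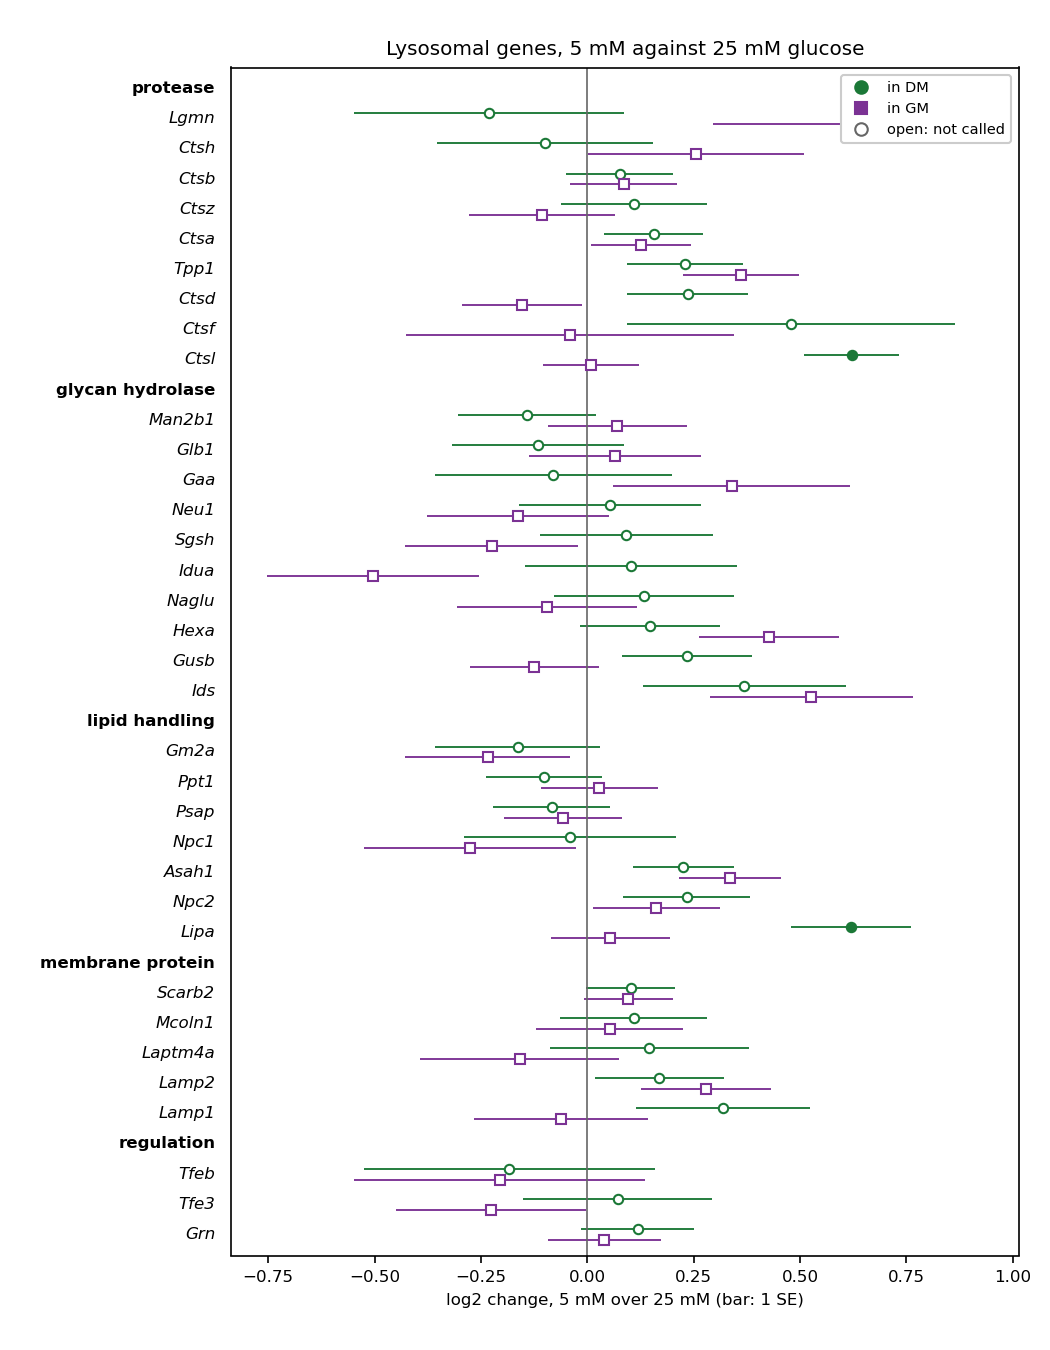
Log2 change of 5 mM over 25 mM glucose for the 34 tested members, grouped by role, in DM (circles) and in GM (squares), with bars of 1 SE and open symbols where the test was not passed. The 2 filled symbols are Ctsl and Lipa in DM, both at 0.62.

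Other genes of the lysosome were taken from lists that were likewise drawn up with earlier results known. Of 17 other hydrolases and cofactors tested, 1 rose and 4 fell at 5 mM, and 1 rose and 6 fell at 25 mM, with median log2 changes of -0.22 and -0.36. The share called lower was 23.5% and 35.3%, beside the 14.1% and 16.6% of all genes. The arylsulfatase Arsa averaged 81.3 in DM and 187 in GM at 5 mM and fell by 1.03, and at 25 mM it fell by 1.41. Arsb, an arylsulfatase that acts on dermatan and chondroitin sulfate, fell by 1.33 at 5 mM and had a change of -0.65 at 25 mM that was not called (limma adjusted p = 0.05005). Plbd2, named after its values were seen, was the one that rose, by 0.57 at 5 mM and 0.40 at 25 mM. The serine carboxypeptidase Scpep1 averaged 1386 in DM at 5 mM against 624 in DM at 25 mM, a log2 change of 1.12 (SE 0.15, limma adjusted p = 0.00092), and it fell by 1.18 in DM over GM at 25 mM. Of the tested genes on the 6 other lists, Scpep1 alone was called with glucose in either medium, and its interaction of 0.96 was not called (adjusted p = 0.0569).

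Calls among genes of the proton pump and of sorting were in the other direction. Of 16 V-ATPase genes tested, 7 rose at 5 mM and 9 at 25 mM and 0 fell, with median log2 changes of 0.30 and 0.35. The share called higher was 43.8% at 5 mM and 56.3% at 25 mM, where 9.90% and 12.6% of all genes were called higher. Atp6v1e1, a subunit of the stalk, rose by 1.09 and 1.15, Atp6v0b of the membrane ring by 1.11 and 0.77, and the catalytic subunit Atp6v1a by 0.81 and 0.57. Of 9 sorting genes tested, 2 rose at 5 mM (22.2%) and 3 at 25 mM (33.3%) and 0 fell. These shares were near the 24.0% and 29.2% of all genes called in either direction. The other sorting genes were not called, among them Gnptab with changes of -0.43 and -0.50 and Gnptg with a change of 1.13 at 5 mM (limma adjusted p = 0.0901). Of all 9, 6 had a change above 0 at 5 mM and 7 at 25 mM. The mannose 6-phosphate receptor Igf2r, which also binds IGF2, averaged 314 in DM and 138 in GM at 5 mM and 306 in DM and 167 in GM at 25 mM, and rose by 1.10 and 0.81. The sorting receptor Sort1 rose by 0.78 and 0.75, and the second mannose 6-phosphate receptor M6pr rose at 25 mM by 0.35.

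Of 12 genes that control lysosomal genes, 1 rose and 1 fell at 5 mM and 2 rose and 1 fell at 25 mM, so that 16.7% and 25% were called, beside 24.0% and 29.2% of all genes. Folliculin (Flcn), known to restrain TFE3 and TFEB, rose by 0.84 and 1.17, and Lamtor5, of the Ragulator scaffold, fell by 0.42 and 0.52. Of 15 other membrane proteins 1 rose and 0 fell at 5 mM (Tpcn1, 0.49), and 3 rose and 1 fell at 25 mM, which is 6.67% and 26.7% called. Of 21 autophagy genes 1 rose and 4 fell at 5 mM, and 4 rose and 3 fell at 25 mM, and these shares, 23.8% and 33.3%, were near those of all genes. Map1lc3a, which coats autophagosomes, rose by 1.47 and 1.24, and its relative Gabarapl1 fell by 1.07 and 1.19.

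**Figure D5:**
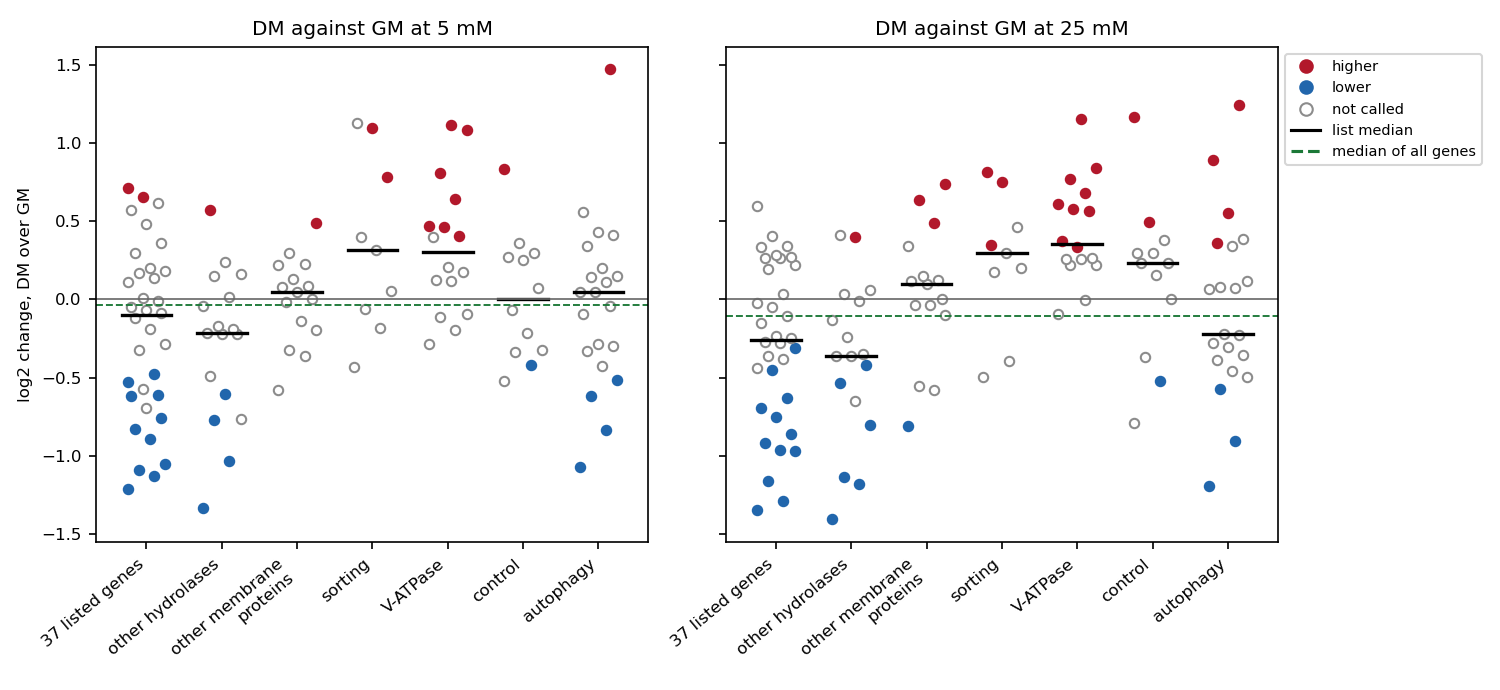
Log2 change of DM over GM at 5 mM (left) and 25 mM glucose (right) for the tested genes of the 37 listed genes and of 6 other lists; each point is a gene, filled where called, black lines are list medians and the dashed line is the median of all genes. Called V-ATPase and sorting genes lie above 0, and called members lie below 0 except Ctsd and Laptm4a at 5 mM.

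Macrophages are rich in lysosomes, and their markers were read as well. The summed intensity of 7 markers was 176 to 363 in DM and 268 to 358 in GM at 5 mM, and 166 to 285 in DM and 385 to 409 in GM at 25 mM. Such a gap at 25 mM was not particular to macrophage markers. The sum of 3 endothelial markers was 65.8 to 73.6 in DM and 88.3 to 126 in GM at 25 mM, while fibroblast and adipocyte markers overlapped, as did osteoclast markers. The median MA intensity was 48.7 to 51.2 in DM and 59.0 to 61.2 in GM at 25 mM. Of the 4 macrophage markers tested, Cd14 fell at both levels, by 1.05 and 1.51, and the other 3 were not called. Ptprc and Itgam, which define leukocytes, read at most 27.2 and 20.1 in any culture and were below the filter. The part of these differences in the changes of the lysosomal genes was not tested.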

How the data were processed

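The files hold linear probe set intensities, deposited by the authors; how these intensities were made (software, scaling target, build) is not given in the sources used here. Means of all but the most extreme values were alike on all arrays of a design (150.05 to 150.07 on MA), so the arrays had been scaled, and they were kept as deposited. Cultures of one group correlated at 0.952 to 0.987 (MA) and at 0.797 to 0.919 (MB).

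Control probe sets (64 per design) were left out. Probe sets with a mean log2 of intensity plus 20 above the 40th percentile of their design were tested: for MA this kept 13575 of 22690, with a floor of 33.2 in intensity, and for MB 13506 of 22575, with a floor of 54.1. Names came from the platform annotation, and the Entrez IDs of 36 members were found in RefSeq. MA and MB had a fit each, made in limma 3.58.1 (R 4.3.3) with 4 group means over 12 cultures and eBayes with a trend (8 residual degrees of freedom), and adjusted by Benjamini-Hochberg. Tests were two-sided. The procedure was also run on simulated data with independent noise in each culture and no 18S division, so that run does not bear on the effects of such a division. The number of arrays limits the precision. Alternatives were pseudocounts of 1 and 64, no filter and a 60th percentile filter, quantile and median scaling, no trend, fewer cultures, array weights, replicate number and 18S division as blocks, the high-18S cultures, and means over probe sets.

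The members, lists and tests were chosen with earlier results of these data known. All members are accounted for; values per culture were set for the 3 with the smallest p called in each comparison, Tfeb, Tfe3, Lamp1, Lamp2, Ctsk and Ctsl, and of each list up to 3 called genes with the largest change could be named.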

Additional observations from a re-analysis of the deposited data

Results flagged for a closer look

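Ctsl is set apart because its DM and GM cultures lay on opposite sides, without overlap, at the 2 glucose levels: all 3 DM cultures were above all 3 GM cultures at 5 mM, and all 3 were below them at 25 mM. The interaction was 0.61 (SE 0.16) on the log2 scale, with a limma adjusted p of 0.139, and 0.45 to 0.70 over 24 alternative settings, with adjusted p from 0.0278 to 0.322. The direction held in each of the 24. Such opposite sides were looked for among the tested members only, and how many of all genes show them was not counted. With median centring the change of DM over GM at 25 mM was -0.11 and was not called (limma adjusted p = 0.468).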

How the results depend on the processing

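For the members named with a test or by the rule, 1189 values were recomputed under alternative settings: 1068 kept direction and side of the threshold, 73 lost the call, 11 gained one and 37 changed sign, all 37 of differences that were not called. Grn, Npc2, Ctsa, Man2b1, Gusb, Gm2a and Ppt1 stayed called at both glucose levels in every alternative run. At 25 mM, Idua and Ctsl lost the call in 13 alternatives each and Psap in 4. At 5 mM, Glb1 lost it in 8, Laptm4a in 6, Hexa in 4, Psap in 3 and Tfe3 in 2. The 60th percentile filter left 25 members tested.

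Leaving out 1 culture gave 9 to 12 members called at 25 mM and 10 to 14 at 5 mM, against 12 and 13. For glucose in DM it gave 0 to 2, against 2, with 0 without DM_5mM replicate 1 or DM_25mM replicate 1. No filter, quantile normalization, median centring, eBayes without trend, the replicate block, the 8 high-18S cultures alone and the mean over probe sets each gave 1 for glucose in DM, and a fit to the cultures compared gave 0. Array weights gave 3 for glucose in GM and 1 for the interaction, where the 18S block also gave 1, against 0 each. The replicate block gave 11 called at 25 mM and 13 at 5 mM. Deviations of same-numbered cultures of different groups correlated over 0.1 in 3 of 18 pairs on MA and 2 of 18 on MB. For cultures of other numbers this was 10 of 36 on MA and 6 of 36 on MB. The 18S division did not follow the numbers, so this check cannot tell whether the numbers pair the cultures.

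Sign changes of uncalled log2 values were as follows. Lamp1 in DM over GM at 25 mM became 0.18 with median centring, 0.067 with array weights, 0.15 with the 18S block and 0.14 in high-18S cultures, and -0.11 to 0.14 with 1 culture left out. Lamp1 with glucose in GM became 0.085 with quantile normalization, 0.057 with median centring, 0.28 with the block and 0.22 in high-18S cultures (with 1 culture left out -0.20 to 0.015). Lamp2 in DM over GM at 5 mM became -0.016 in high-18S cultures, and its interaction 0.028 with the block (with 1 culture left out -0.22 to 0.040). Ctsl with glucose in GM became -0.021 with the block and -0.040 in high-18S cultures (with 1 culture left out -0.064 to 0.051). Tfeb with glucose in GM became 0.13 with array weights (with 1 culture left out -0.66 to 0.14), and its interaction -0.083 with quantile normalization, -0.14 with median centring and -0.26 with array weights (with 1 culture left out -0.32 to 0.47). Tfe3 with glucose in GM became 0.084 with the block, and its interaction -0.013; with glucose in DM it ran from -0.15 to 0.30 with 1 culture left out. The cause was not tested.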
